A study of Mus musculus with 66 samples.

Results

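Lowering Setd5 mRNA in cultured mouse neurons was compared with a nontargeting control in 11 libraries, out of 66 in the series. The knockdown group held 5 of the 6 libraries labelled Setd5 shRNA, which are female replicates 1 to 3 and male replicates 2 and 3. Male replicate 1 was left out because its Setd5 level was that of control. The control group held the 6 nontargeting libraries, 3 per sex. Because a measured Setd5 level decided which libraries entered, the level of Setd5 is described below without a test.

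SETD5 is a nuclear protein with a SET domain, the fold that carries the active site of many histone methyltransferases. It is known to bind the HDAC3-NCoR corepressor, which removes acetyl groups from histones, and the PAF1 complex, which travels with elongating RNA polymerase II. Loss of 1 copy of the gene in people is a known cause of intellectual disability and autism, and mice with 1 functional copy show changes in neuronal gene expression and in synapses. The series asks what such regulators do to transcription in neurons of each sex.

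All cultures were neurons from wildtype E16.5 embryos, divided into female and male cultures. Both groups received lentivirus until day 6 in vitro and were collected for RNA on day 10. The knockdown virus carried an shRNA, a hairpin that is processed into a small interfering RNA, directed at Setd5 and used at a dose chosen by RT-qPCR for about 50% of the normal level, per the labels. The control group received a nontargeting shRNA, whose columns the count table marks Luc. The 3 libraries of a group came from wells infected in triplicate, and nothing in the labels says that the wells came from separate cultures or litters. The p-values therefore measure the spread between these samples, which may be technical. The labels name the target but not the hairpin sequence or the number of hairpins, so loss of Setd5 and an effect of the hairpin on other mRNAs cannot be told apart. In such bulk cultures, fewer cells of a type and less RNA per cell cannot be told apart either.

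Setd5, on chromosome 6 (113077262 to 113153432 in RefSeq's GRCm38.p6, the mouse genome that mm10 also names), was measured in every library as CPM, counts scaled to a common library size. The 6 nontargeting libraries held between 97.3 and 155 CPM, with a median of 134. Setd5 shRNA held 31.9, 61.5 and 32.9 CPM in female replicates 1, 2 and 3, and 42.9 and 42.7 CPM in male replicates 2 and 3. The groups do not overlap, which follows in part from leaving out male replicate 1 for its Setd5 level. The fitted level in the chosen Setd5 shRNA libraries was 32.3% of control (log2 fold change -1.63, SE 0.178), below the intended level. With male replicate 1 of Setd5 shRNA put back, the log2 fold change was -1.22 (SE 0.297). The highest knockdown library, at 61.5 CPM, lies close to the lowest of the 53 no virus and other shRNA libraries, at 66.2 CPM, setting aside male replicate 1 of Kdm6b shRNA.

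**Figure D1:**
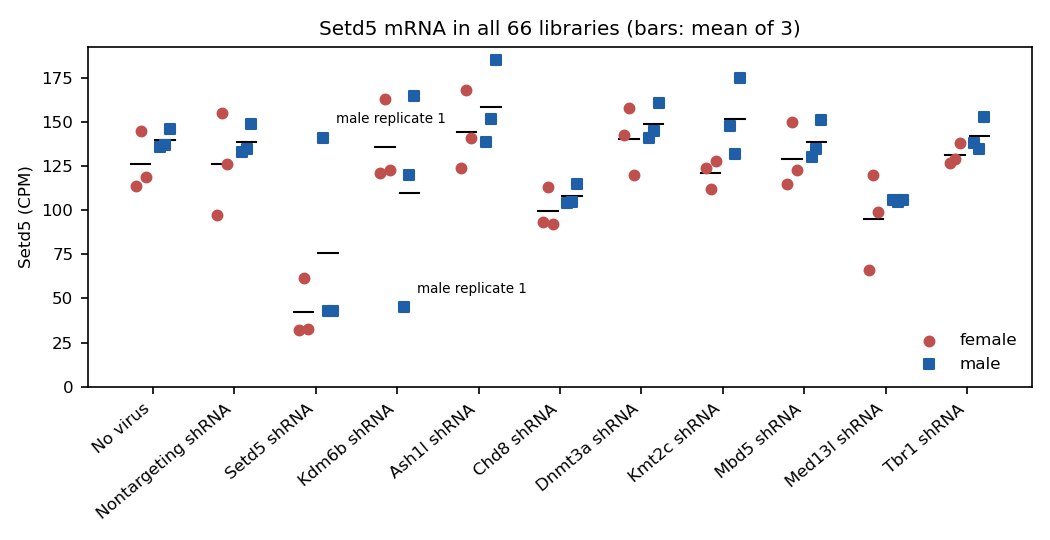
Setd5 level in CPM in all 66 libraries, by treatment on the x axis. Circles are female and squares are male libraries, and bars are means of 3. The library labelled Setd5 shRNA male replicate 1 lies at 141 CPM among the controls, and the library labelled Kdm6b shRNA male replicate 1 lies at 44.9 CPM among the Setd5 knockdowns.

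3 libraries stood apart. In male replicate 1 of 2 treatments Setd5 went against the label. The library labelled Setd5 shRNA male replicate 1 held 141 CPM of Setd5 and 23.1 CPM of Kdm6b, against 31 to 64.9 CPM of Kdm6b in nontargeting libraries. The library labelled Kdm6b shRNA male replicate 1 held 44.9 CPM of Setd5 and 39.9 CPM of Kdm6b. It is in neither group of the main comparison. Setd5 shRNA female replicate 1 lay at -81.8 on the first principal component, which held 33.9% of the variance, with the other 10 libraries between -31.6 and 31. That library held 612 counts of Ddx3y and 574 of Kdm5d, which are Y-linked, while Uty, also Y-linked, was at 0 and Xist was at 63232 counts. Counts of calls with these libraries put back or taken out are given beside the main counts. Total counts ran from 13634872 to 34729520 in the knockdown group and from 25681971 to 55616813 in the control group. The groups interleave in depth, and Setd5 female replicates 2 and 3, at 17780457 and 13634872 counts, lie below every control.

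Called genes were lower more often than higher under Setd5 shRNA. Of 14964 genes tested with edgeR, 487 passed an adjusted p of 0.05 (3.25%), 126 of them higher (0.842%) and 361 lower (2.41%), Setd5 included. The imbalance was among called genes. Over all tested genes other than Setd5, 7616 were fitted above 0 and 7347 below, and a fit of all libraries with the replicate block called 1778 genes higher and 1863 lower (48.8% higher, against 25.9% here). The decreases were also the larger changes among the calls. The 360 lower genes other than Setd5 had a median log2 fold change of -0.70, and 66 of them fell by more than 2-fold. The 126 higher genes had a median of 0.49, and 5 of them rose by more than 2-fold. The CPM of the 5 and 6 libraries did not overlap for 95 of the 126 higher and 315 of the 360 lower genes. Over all genes tested, 782 (5.23%) did not overlap, 282 higher (1.88%) and 500 lower (3.34%).

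The number of calls moved with the libraries and the model. The replicate number was also used as a block within each sex, which takes same-numbered libraries as pairs. With it 2004 genes passed, 866 higher and 1138 lower, and 486 of the 487 were among them. Putting the library labelled Setd5 shRNA male replicate 1 back left 59 genes, 20 higher and 39 lower, all among the 487. Leaving out single knockdown libraries gave 471 genes without female replicate 1, 916 without female replicate 2, 229 without female replicate 3, 270 without male replicate 2 and 190 without male replicate 3. Leaving out single nontargeting libraries gave 321, 405 and 310 genes without female replicates 1, 2 and 3, and 269, 253 and 287 without male replicates 1, 2 and 3. The 52 genes called and named below kept their direction in each of these fits, which share most libraries with the fit that chose them. A kept direction is therefore little evidence of its own.

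**Figure D2:**
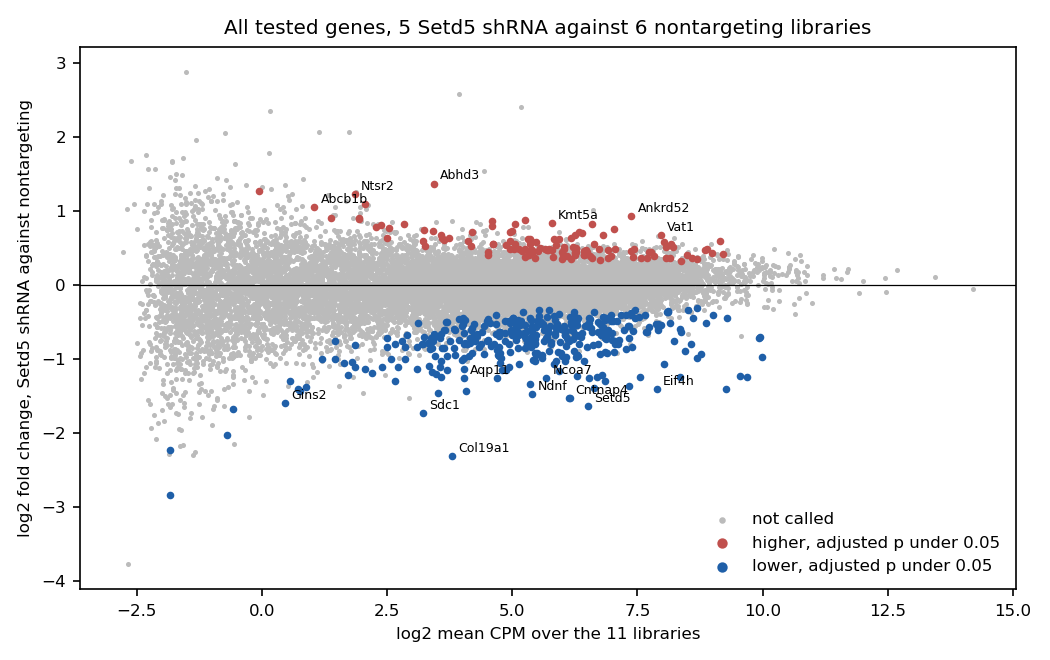
Log2 fold change of each tested gene (y axis) against its log2 mean CPM over the 11 libraries (x axis). Dark red points are the genes called higher and blue points, Setd5 among them, those called lower. The blue points reach further from 0 and are more numerous (361) than the red ones (126).

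The gene with the smallest p was Dnal1, which encodes a light chain of axonemal dynein (chromosome 12, 84114279 to 84143517). It held between 82.5 and 89 CPM in the nontargeting libraries, median 87.2. Setd5 shRNA held 44.8, 48.1 and 44.1 CPM in females and 42.9 and 41.2 CPM in males. Every knockdown library was near one level and all lay far below every control. The log2 fold change was -0.97 with SE 0.0782 (adjusted p = 0.000247 by edgeR's quasi-likelihood test, as for every adjusted p of this comparison). The left-out library, at 66.8 CPM, lay between the groups.

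Ncoa7, a nuclear receptor coactivator whose TLDc domain binds the vesicular proton pump, fell to 41.8% of control. Nontargeting libraries held 62.4 to 82.4 CPM, median 68.5. Knockdown libraries held 25.9, 35.8 and 27 CPM in females and 30 and 26.8 CPM in males. The groups do not overlap, and here the left-out library, at 78.5 CPM, lay inside the control range (log2 fold change -1.26, SE 0.114, adjusted p = 0.000247).

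Eif4h encodes a translation initiation factor that stimulates the helicase eIF4A. It held 314 to 354 CPM in controls (median 328) and 85.4, 150 and 115 CPM in female and 137 and 135 CPM in male knockdown libraries. The log2 fold change was -1.40 (SE 0.132, adjusted p = 0.000247). This was the most abundant of the 14 named lower genes, and its level under Setd5 shRNA was 37.9% of control.

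Col19a1, a collagen that interneurons secrete at inhibitory synapses, showed the deepest fall among the named genes. Its controls held 17.7 to 24.6 CPM (median 22). The knockdown libraries held 3.61, 7.1 and 2.7 CPM in females and 3.53 and 4.8 CPM in males, with no overlap. The log2 fold change was -2.31 (SE 0.218, adjusted p = 0.000247), or 4.97-fold lower.

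Cntnap4, a cell adhesion protein of the neurexin superfamily that interneurons use, fell from 77.6 to 119 CPM in controls (median 101) to 32.6, 44 and 28.8 CPM in females and 33.4 and 33.8 CPM in males. Its log2 fold change was -1.52 (SE 0.143, adjusted p = 0.000247). The left-out library, at 111 CPM, was again inside the control range.

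The other lower genes named for their small p were Ate1, Wdr48, Sowahc, Rchy1 and Aqp11, and none of them overlapped between the groups. Ate1, which attaches arginine to proteins to mark them for degradation, fell by 1.03 on the log2 scale, from a control median of 116 CPM to between 48.6 and 61.6 CPM. Rchy1, a ubiquitin ligase, fell by 1.15, from 38.5 CPM to between 15 and 21.5 CPM. Both act in protein turnover, as does Wdr48, a partner of deubiquitinating enzymes, which fell by 0.96, from 104 CPM to between 47.6 and 55.3 CPM. Aqp11, an intracellular water channel, fell by 1.25 and Sowahc, an ankyrin repeat protein, by 1.43. The adjusted p was 0.000247 for each of the 5.

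Of the lower genes named for the size of the change, Sdc1, a cell surface heparan sulfate proteoglycan, fell from 9.03 to 17.6 CPM in controls to 2.95 to 5.22 CPM (log2 fold change -1.73, SE 0.217, adjusted p = 0.00125). Igf1, the growth factor, fell by 1.52 (SE 0.279, adjusted p = 0.0107), from a control median of 108 CPM to 43.4, 46.4 and 13.4 CPM in females and 30.5 and 40.7 CPM in males. Its knockdown value in female replicate 3 was well below the others. Ndnf, a secreted protein that marks a class of interneurons, fell by 1.47 (SE 0.21, adjusted p = 0.00283). Gins2, a subunit of the replicative helicase, had at most 2.26 CPM in controls and fell by 1.59 (SE 0.322, adjusted p = 0.0182). It lost its call without nontargeting male replicate 2, Setd5 male replicate 2 or Setd5 male replicate 3, with an adjusted p of up to 0.082.

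Kmt5a, the enzyme that places 1 methyl group on lysine 20 of histone H4, had the smallest p of the genes that rose (chromosome 5, 124439930 to 124462311). Controls held 31.2 to 45.3 CPM, median 41.8. Knockdown libraries held 71.9, 71.7 and 74.8 CPM in females and 63.3 and 80.1 CPM in males. The lowest knockdown value was above the highest control, and the log2 fold change was 0.84 (SE 0.109, adjusted p = 0.00139). Kmt5a was also the only one of 34 other SET-domain methyltransferases called in either direction (2.94%, against 3.25% of all genes).

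Abhd3, a phospholipase of medium-chain phosphatidylcholines, rose most among the named genes. Controls held 5.15 to 8.65 CPM (median 5.97), and knockdown libraries held 25, 12.9 and 14.2 CPM in females and 16.3 and 13 CPM in males. The log2 fold change was 1.37 (SE 0.188, adjusted p = 0.0022), and 1.19 without Setd5 female replicate 1, which held the highest value. B4galt5, a galactosyltransferase that makes lactosylceramide, held 52.5 to 69.1 CPM in controls (median 62.9), 99.9, 87.3 and 108 CPM in female and 104 and 113 CPM in male knockdown libraries. Its log2 fold change was 0.72 (SE 0.1, adjusted p = 0.00234).

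Among the other genes that rose with a small p were Rab31 (0.83), a GTPase of vesicle traffic, Klhl21 (0.72), a substrate adaptor of a cullin ubiquitin ligase, and Dcp2 (0.70), the enzyme that removes the mRNA cap. Rwdd4a (0.71), Vat1 (0.68), Camkk2 (0.56), a kinase upstream of CaMKI, CaMKIV and AMPK, and Pttg1ip (0.55) completed them, each value being a log2 fold change. In these 7 genes the groups did not overlap, and the adjusted p lay between 0.00394 for Rab31 and 0.00757 for Pttg1ip. The 4 named for a larger fold were less secure. Ankrd52, a subunit of protein phosphatase 6, rose by 0.93 (adjusted p = 0.0137) and lost its call without Setd5 male replicate 3 (adjusted p = 0.0736). Abcb1b, a drug efflux pump, rose by 1.05 (adjusted p = 0.0258), and Adamts4, a protease of the extracellular matrix, by 0.91 (adjusted p = 0.0308). Ntsr2, a neurotensin receptor, rose by 1.23 (adjusted p = 0.0385), from 1.27 to 3.38 CPM in controls to 3.29 to 8.41 CPM, so its groups overlap. Ntsr2 and Abcb1b each kept their call without 3 of the 11 libraries. For Ntsr2 these were nontargeting female 3, nontargeting male 3 and Setd5 female 2, and for Abcb1b nontargeting male 3, Setd5 female 1 and Setd5 female 2. Adamts4 kept its call without 2, nontargeting female 3 and Setd5 female 2. Without another library the adjusted p reached 0.116 for Ntsr2, 0.0697 for Abcb1b and 0.103 for Adamts4. The other 23 of these 28 genes stayed called whichever of the 11 libraries was left out.

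**Figure D3:**
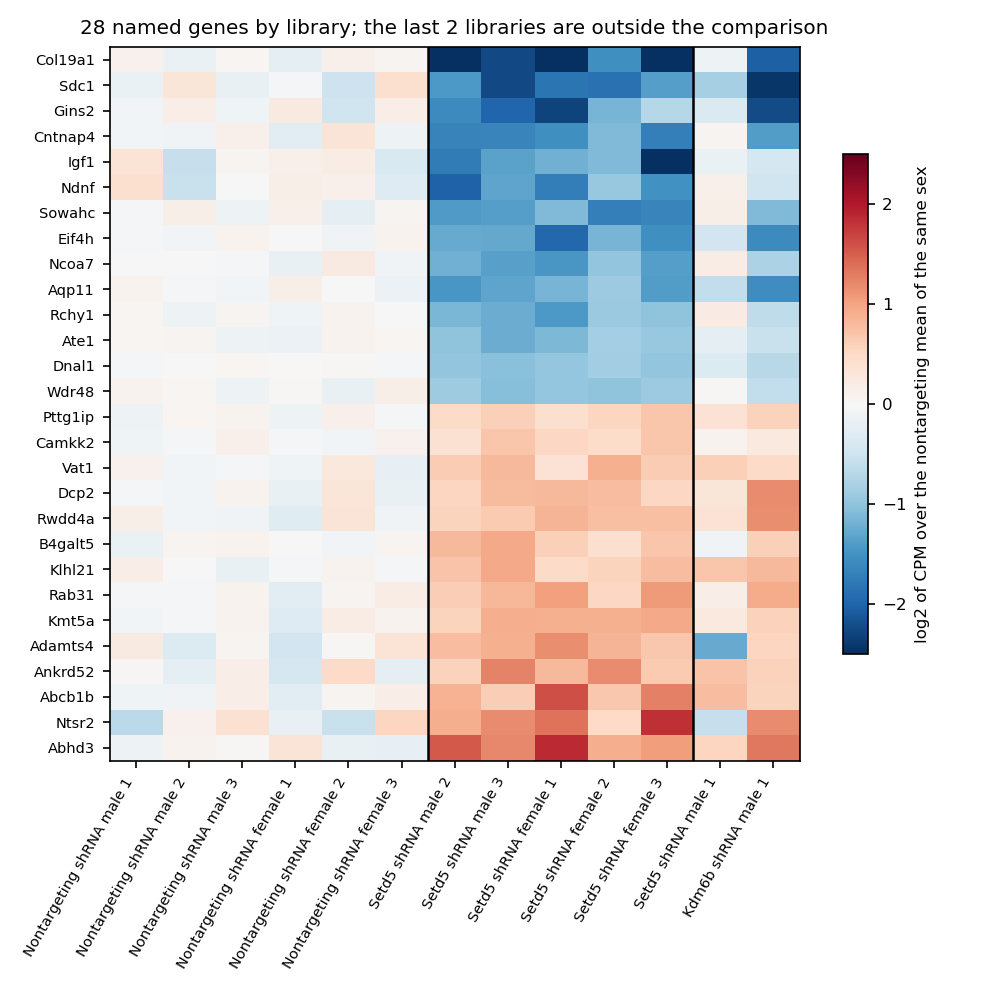
Log2 of CPM over the nontargeting mean of the same sex for the 28 genes chosen by p or fold (rows of the grid) in 13 libraries (columns of the grid). Blue is lower and red is higher. The 6 control columns are pale, the 5 knockdown columns are blue for the 14 lower and red for the 14 higher genes, and of the 2 libraries outside the comparison the one labelled Kdm6b shRNA male 1 looks like the knockdowns.

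The 2 libraries outside the comparison were placed by the same 28 genes. The library labelled Setd5 shRNA male replicate 1 lay within the control range for 14 of 28 genes and within the knockdown range for 3. It lay past the control range in the knockdown direction for 13. Its median departure from control was 22.5% of the knockdown's log2 change. The library labelled Kdm6b shRNA male replicate 1 lay within the control range for 2 genes and within the knockdown range for 15, with a median of 78.3%. For 26 genes it lay past the control range in the knockdown direction. On these genes, then, the library labelled Kdm6b looked more like a Setd5 knockdown than the one labelled Setd5. Since the 28 genes were chosen from the 5 other knockdown libraries, neither of these 2 entered the choice. With the left-out library back in the Setd5 group, 18 of the 52 named genes stayed called. Those 18 include Abhd3, Aqp11, Ate1, Dcp2, Dnal1, Eif4h, Klhl21, Kmt5a, Rab31, Rwdd4a, Sdc1 and Vat1. Among those lost were Col19a1 (adjusted p = 0.0731), Cntnap4 (0.0785), Ncoa7 (0.0942), Rchy1 (0.108), Sowahc (0.0829), Wdr48 (0.0612), Igf1 (0.101), Ndnf (0.132), B4galt5 (0.0731) and Camkk2 (0.0612).

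Promoter sequences are printed for the genes of smallest p in each direction whose promoter could be printed from RefSeq's GRCm38.p6 table. Each runs 5′ to 3′ on the gene's strand, from 250 bases before to 50 after the first listed start. Capitals mark the GC box GGGCGG and the CCAAT box CCAAT on either strand. The other motifs searched on both strands, none of which occurs in the 4, were ETS (CCGGAAG), NRF1 (GCGCATGC), CRE (TGACGTCA), E-box (CACGTG) and YY1 (AAGATGGC). The windows are chr5:124439680-124439979 on the plus strand for Kmt5a, chr2:167349129-167349428 on the minus strand for B4galt5, chr12:84114078-84114377 on the plus strand for Dnal1 and chr10:30803277-30803576 on the minus strand for Ncoa7. The Ncoa7 window belongs to a start inside the gene, whose span reaches 30807700, and the start of the Dnal1 window also lies inside the printed span of that gene, close to its first base.
Kmt5a: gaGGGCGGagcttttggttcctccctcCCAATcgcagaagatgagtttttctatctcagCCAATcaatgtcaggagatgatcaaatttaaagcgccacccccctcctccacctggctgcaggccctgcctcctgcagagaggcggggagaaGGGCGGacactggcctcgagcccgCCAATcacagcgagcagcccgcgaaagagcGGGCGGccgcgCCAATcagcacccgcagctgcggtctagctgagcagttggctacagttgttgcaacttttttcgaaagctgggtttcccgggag
B4galt5: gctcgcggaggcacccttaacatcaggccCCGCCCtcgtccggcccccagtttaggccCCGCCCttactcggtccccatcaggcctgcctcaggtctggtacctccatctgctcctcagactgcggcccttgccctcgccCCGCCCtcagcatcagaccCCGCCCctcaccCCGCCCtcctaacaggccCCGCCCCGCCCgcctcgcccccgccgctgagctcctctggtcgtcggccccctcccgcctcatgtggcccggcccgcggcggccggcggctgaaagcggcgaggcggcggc
Dnal1: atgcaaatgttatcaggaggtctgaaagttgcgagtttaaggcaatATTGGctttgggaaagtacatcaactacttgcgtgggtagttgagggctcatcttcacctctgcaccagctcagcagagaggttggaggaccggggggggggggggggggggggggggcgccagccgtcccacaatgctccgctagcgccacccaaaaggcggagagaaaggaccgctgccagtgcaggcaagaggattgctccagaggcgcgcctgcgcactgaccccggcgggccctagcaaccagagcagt
Ncoa7: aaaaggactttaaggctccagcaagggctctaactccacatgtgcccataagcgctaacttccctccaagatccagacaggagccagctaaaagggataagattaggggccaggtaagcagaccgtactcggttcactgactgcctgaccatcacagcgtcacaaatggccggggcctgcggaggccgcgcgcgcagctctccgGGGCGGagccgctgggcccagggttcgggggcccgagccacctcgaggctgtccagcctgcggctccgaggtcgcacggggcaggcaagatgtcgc
Among the genes that rose, Kmt5a has 4 CCAAT boxes and 3 GC boxes, while B4galt5 has 7 GC boxes, the last 2 of which overlap, and no CCAAT box. Of the 2 genes that fell, Dnal1 has 1 CCAAT box and Ncoa7 has 1 GC box.

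Over the genes with a promoter in that table, a GC box was found in 72 of 96 higher genes, 198 of 287 lower genes (69.0%) and 7402 of all 11692 tested genes (63.3%). The CCAAT box was in 38.5%, 38.3% and 38.5% in the same order. The E-box was in 15.6%, 8.01% and 9.95%, and the ETS motif in 15 of 96, 40 of 287 and 1935 of 11692. The NRF1, CRE and YY1 motifs were each in at most 5.21% of any of these sets. Median GC content of the promoters was 63.3% for the higher, 63.3% for the lower and 61.0% for all tested genes. These shares are descriptions of fixed windows, without a test. The median span of the lower genes was 30.8 kb, of the higher genes 23.6 kb and of all tested genes 24.1 kb.

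No gene of the known partner complexes of SETD5 passed the test against nontargeting, which called 3.25% of all genes. At that share, lists of 6 genes would often hold no call. None of the 6 genes of the HDAC3-NCoR complex was called (median log2 fold change 0.04, all tested genes 0.01), and none of the 6 genes of the PAF1 complex (median 0.11). Hdac3 itself held 95.8 to 122 CPM in controls and 117 to 147 CPM in knockdown libraries, so the groups overlap (log2 fold change 0.23, SE 0.0944, adjusted p = 0.227). Wdr61, a PAF1 complex subunit, had a log2 fold change of -0.27 (adjusted p = 0.191). Rtf1 had 0.24 (adjusted p = 0.335), and the others in the 2 complexes lay between -0.15 and 0.16. The close paralog of SETD5, Kmt2e, had a value of 0.08 (SE 0.15, adjusted p = 0.833). None of the 8 other shRNA targets of the series was called, with values from -0.23 for Tbr1 to 0.22 for Mbd5. Against the mean of the other 8 shRNAs, where edgeR called 18.4% of all genes, some members of the 2 complexes did pass. Wdr61 had -0.33 there (adjusted p = 3.49e-05), Ncor1 0.31 (0.0109), Hdac3 0.14 (0.0262) and Tbl1x 0.14 (0.0442). The other members did not pass in that contrast.

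Synaptic genes moved both ways. Of 34 presynaptic genes, 1 was called higher and 4 lower (14.7%, against 3.25% of all genes), and the median log2 fold change of the list was -0.03. Cplx2, complexin that clamps and promotes vesicle fusion, held 411 to 600 CPM in controls (median 453). Knockdown libraries held 306, 269 and 247 CPM in females and 249 and 285 CPM in males, with no overlap (log2 fold change -0.79, SE 0.111, adjusted p = 0.00234). The left-out library, at 275 CPM, sat with the knockdowns for this gene. Vamp2, the vesicle SNARE, fell by 0.71 (adjusted p = 0.0292), Syn3, a synapsin, by 0.56 (adjusted p = 0.0364) and Erc2, an active zone scaffold, by 0.41 (adjusted p = 0.0404). Syt7, a calcium sensor of slow release, rose by 0.36 (adjusted p = 0.0406).

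Of 38 postsynaptic genes, 1 was called higher and 3 lower (10.5%, median -0.08). Grin3a, a subunit of NMDA receptors that lowers their calcium permeability, held 50.3 to 64.5 CPM in controls (median 62). It held 41.4, 37.1 and 39.6 CPM in female and 39.7 and 40.9 CPM in male knockdown libraries (log2 fold change -0.58, SE 0.0887, adjusted p = 0.00421). The knockdown values of Grin3a were nearly equal. Dlgap1, a scaffold of the postsynaptic density, fell by 0.76 (adjusted p = 0.0202). Gria1, a subunit of AMPA receptors, rose by 0.59 (adjusted p = 0.0341), with groups that overlap at 394 to 573 and 549 to 852 CPM.

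Cplx2 and Grin3a stayed called whichever library was left out, and the other synaptic calls named here did not. Dlgap1 was lost without nontargeting male 3, Setd5 female 3, male 2 or male 3 (adjusted p up to 0.0673). Vamp2 kept its call only without nontargeting female 3 or Setd5 female 2 (otherwise up to 0.0928), and Erc2 only without Setd5 female 1 or 2 (up to 0.122). Syn3 kept it only without nontargeting female 1, nontargeting male 1 or Setd5 female 2 (up to 0.11). Syt7 kept it only without nontargeting female 2, Setd5 female 1 or Setd5 female 2 (up to 0.143). Gria1 kept it only without nontargeting female 2, nontargeting male 3, Setd5 female 2 or Setd5 male 2 (up to 0.145).

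Cholesterol synthesis genes had more members below 0 than above. Of 24 tested, 18 were fitted below 0 and 3 were called, all lower (12.5%, median -0.18 against 0.01 for all genes). Hsd17b7, an enzyme of the late steps of the pathway, held 74.4 to 101 CPM in controls (median 86.2) and 30.5, 60.8 and 39.6 CPM in female and 41.2 and 39 CPM in male knockdown libraries. It fell by 1.02 on the log2 scale (SE 0.156, adjusted p = 0.00421). Srebf2, the transcription factor that drives the pathway, fell by 0.51 (adjusted p = 0.0204). Srebf2 was lost without nontargeting female 3 or male 2, or Setd5 female 3, male 2 or male 3 (up to 0.0655). With the replicate block, 10 of the 24 were lower and 1 was higher (45.8%, against 12.5% of all genes in that fit), and with the left-out library put back none was called.

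Of 40 lysosomal genes tested, 2 were lower and 1 was higher (7.5%, median 0.08). Arsb, the sulfatase that degrades dermatan sulfate, held 13.3 to 18.7 CPM in controls (median 16.8). It held 5.17, 6.35 and 3.9 CPM in female and 5.96 and 7.31 CPM in male knockdown libraries (log2 fold change -1.45, SE 0.143, adjusted p = 0.000247). Arsb stayed called in every fit tried, the one with the left-out library (8.93 CPM) included. Galns, another lysosomal sulfatase, fell by 0.66 (adjusted p = 0.0425). It kept its call only without nontargeting male 2 or Setd5 female 2 (otherwise up to 0.102).

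Sema3c, a secreted guidance cue, was the only one of 39 axon guidance genes called (2.56%, median -0.07). Controls held 30.3 to 47.1 CPM (median 41.3), and knockdown libraries held 16.2, 21.1 and 14.6 CPM in females and 18.6 and 21.2 CPM in males (log2 fold change -1.11, SE 0.122, adjusted p = 0.00058). Jun, a transcription factor of the AP-1 family, was the only one of 28 activity-regulated genes called (3.57%, median -0.13). It held 53 to 78.3 CPM in controls (median 60.2) and 24.3, 30.6 and 27.3 CPM in female and 41.5 and 34.7 CPM in male knockdown libraries (log2 fold change -0.94, SE 0.113, adjusted p = 0.000954). Neither gene overlapped between the groups, and both stayed called whichever library was left out. The shares of their lists were close to that of all genes.

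Other lists gave few calls. Of 29 cell cycle and replication genes, Top2a (-1.43, adjusted p = 0.0346) and Mcm2 (-0.79, adjusted p = 0.042) were lower (6.9%, median 0.07), from controls of at most 3.8 and 9.91 CPM. Of 21 p53 target genes, Aen was higher (0.41, adjusted p = 0.0455, 4.76%), and the list had a median of 0.28 with values from -0.86 to 0.79. Of 25 genes of the stress and unfolded protein responses, Dnajb9 was lower (-0.58, adjusted p = 0.0346, 4%, median -0.13). Each of these 4 lost its call without most single libraries. Aen kept it only without nontargeting female 2, Dnajb9 without nontargeting female 3 or Setd5 female 2, Mcm2 without nontargeting female 2 or Setd5 female 3, and Top2a without nontargeting female 2, nontargeting female 3 or Setd5 female 2. The highest adjusted p reached was 0.149 for Aen, 0.121 for Dnajb9, 0.103 for Mcm2 and 0.131 for Top2a. None of the 12 interferon-stimulated genes that could be tested was called (median 0.16). None of 32 ribosome biogenesis genes was called, although 26 of the 32 were fitted above 0 (median 0.13). Since 3.25% of all genes were called, lists of this size can easily hold no call.

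The replicate block raised the calls of these lists as it did those of all genes, of which it called 12.5%. The postsynaptic list then had 3 higher and 6 lower genes (23.7%), axon guidance 0 and 8 (20.5%), activity-regulated genes 2 and 4 (21.4%), lysosomal genes 6 and 3 (22.5%) and SET-domain genes 2 and 3 (14.7%). The p53 targets had 6 higher and 1 lower (33.3%), the stress list 0 and 3 (12%) and the cell cycle list 0 and 4 (13.8%). Without Setd5 female replicate 1 in the unblocked comparison, presynaptic genes had 1 higher and 2 lower, postsynaptic genes 0 and 3, and the p53 and stress lists none.

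**Figure D4:**
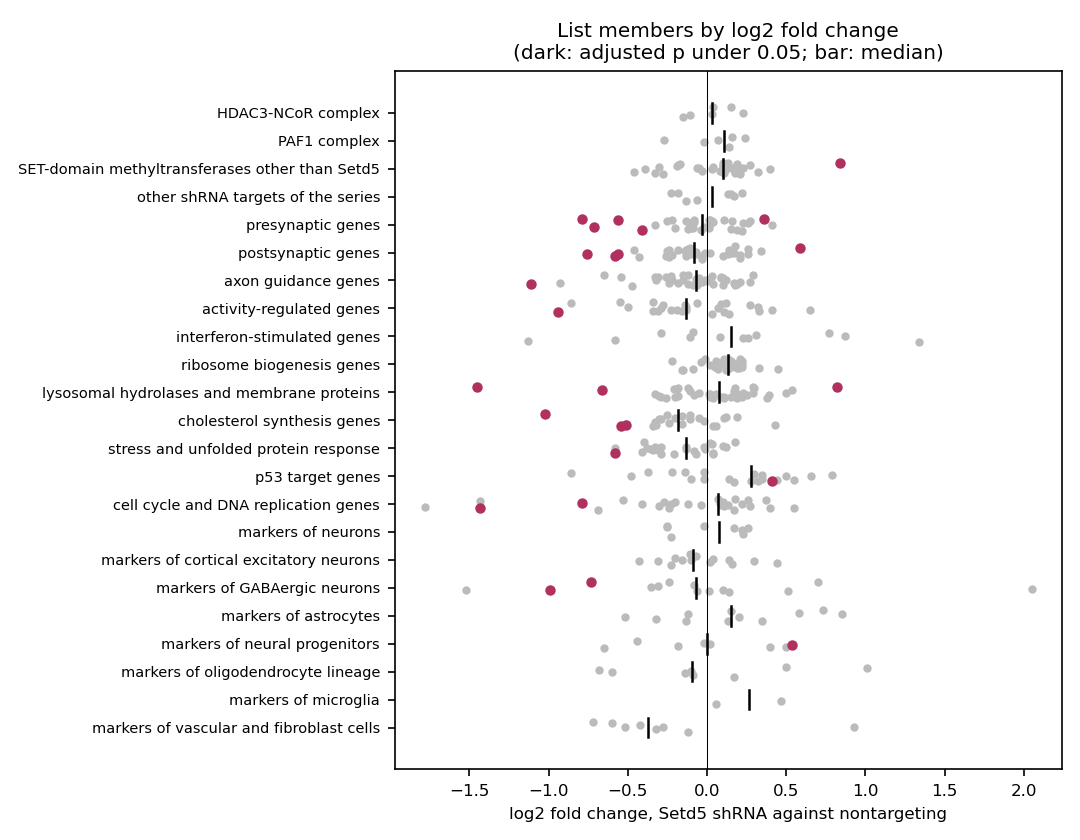
Log2 fold change (x axis) of each tested member of the gene and marker lists (y axis), with called members dark and the list median as a bar. Dark points lie on both sides of 0 for synaptic and lysosomal genes, and only below 0 for cholesterol synthesis genes, where 3 of 24 were called.

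The cultures carried the markers of neurons. The summed level of 8 neuronal markers ran from 6330 to 7200 CPM in nontargeting and from 6790 to 7180 CPM in knockdown libraries, and none was called. For 15 markers of cortical excitatory neurons the sums were 1050 to 1290 and 1090 to 1300 CPM, again with none called. Of all genes, 3.25% were called, so lists this short can easily hold no call. For 14 markers of GABAergic neurons they were 2590 to 3600 and 2100 to 3740 CPM. Of those 14, Sst, a peptide of 1 interneuron class, and Slc32a1, the vesicular GABA transporter, were lower (14.3%, median -0.07). Sst fell from 414 to 672 CPM (median 528) to 144, 362 and 205 CPM in females and 336 and 284 CPM in males (log2 fold change -0.99, SE 0.208, adjusted p = 0.0223). Slc32a1 fell by 0.73 (adjusted p = 0.0411), with groups that overlap. Of the 14, 6 were fitted above 0 and 8 below, Sst and Slc32a1 included. The members other than Sst and Slc32a1 went both ways without passing the test. Lhx6, a transcription factor of the lineage that includes Sst cells, held 76.8 to 121 CPM in controls and 104 to 163 CPM in knockdown libraries (log2 fold change 0.51, adjusted p = 0.0735), and against the other shRNAs it was higher by 0.80 (edgeR adjusted p = 2.15e-08). Pvalb had 2.05 (adjusted p = 0.0871) at no more than 1.65 CPM, and Calb2 had 0.70 (adjusted p = 0.304). Below 0 lay Vip at -1.52 (adjusted p = 0.217), Npy at -0.35 (0.431), Dlx2 at -0.31 (0.566) and Dlx1 at -0.24 (0.524), among others. Lhx6, Pvalb, Calb2, Vip, Npy, Dlx2 and Dlx1 are named because their values were seen. Gad1, which makes GABA, held 560 to 905 and 587 to 962 CPM (log2 fold change 0.01). Sst was lost without nontargeting female 3 or male 2, or Setd5 female 3 or male 3 (up to 0.0783), and with the replicate block once Setd5 female 1 was left out. Slc32a1 kept its call only without Setd5 female 2 (otherwise up to 0.0954). The part of interneuron number in the falls of Col19a1, Cntnap4, Ndnf and Sst was not tested.

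Markers of other cells were less abundant. For 12 astrocyte markers the sums were 381 to 571 CPM in controls and 328 to 571 CPM in knockdown libraries, and for 10 markers of the oligodendrocyte lineage 59 to 69.9 and 59.7 to 69.8 CPM. Microglial markers summed to at most 2.95 CPM, and only 2 of the 10 could be tested. For 10 vascular and fibroblast markers the sums were 21.6 to 53.2 and 14.5 to 34.8 CPM. None of these 4 lists had a called gene, where 3.25% of all genes were called. With the replicate block, which called 12.5% of all genes, GABAergic markers had 2 higher and 3 lower genes (35.7%). Astrocyte markers had 2 and 1 (27.3%), neural progenitor markers 2 and 1 (37.5%) and vascular markers 0 and 1 (12.5%). Neuronal markers had 1 and 0 (12.5%) and excitatory markers 1 and 1 (13.3%). The 8 neural progenitor markers summed to 181 to 492 CPM in controls. They reached 769 CPM in Setd5 female replicate 1, against 197 to 449 CPM in the other knockdown libraries, and their part in the results was not tested. Vim, an intermediate filament of progenitors and glia, was the 1 called (0.54, adjusted p = 0.0301), and its call held only without nontargeting female 2, nontargeting male 3, Setd5 female 2 or Setd5 male 2 (otherwise up to 0.124).

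Fitted within each sex, the knockdown passed the threshold for few genes. In females, 3 libraries against 3, 47 of 15300 genes were called (0.307%), 1 higher (0.00654%) and 46 lower (0.301%), a count that includes Setd5 itself and is 46 without it. The higher gene was Kmt5a (adjusted p = 0.0324 in females, 0.189 in males). In males, 2 against 3, 7 were called (0.0458%), all lower. With the replicate block the counts were 924 in females and 255 in males, and with the left-out library put back no gene was called in either sex. Leaving out single libraries gave between 0 and 458 genes in females and between 0 and 46 in males, most of them without Setd5 female replicate 2 in both cases. The 7 genes of males were all called in females too. They were Aqp11, Ate1, Cntnap4, Col19a1, Dnal1, Ncoa7 and Dnm3, the last of which, a dynamin of synapses, is named here because its values were seen (-0.84 in females, -1.05 in males).

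Effects in females and males were set side by side, and their difference was tested. Dnal1 fell by 0.94 in females (SE 0.111) and by 1.01 in males (SE 0.127), and Col19a1 by 2.20 (SE 0.298) and 2.45 (SE 0.347). Kmt5a rose by 0.91 in females and 0.75 in males, and its difference between the sexes was -0.16 (SE 0.227). Dnal1, Col19a1 and Kmt5a were chosen over both sexes, with every knockdown library on the same side of the control mean of its sex. Their shared direction in females and males was therefore set by the choice. Over all 15300 genes, without that choice, the log2 fold changes of females and males had a correlation of 0.358. No gene passed the test of the sex difference itself (edgeR, 0 of 15300, 123 at an unadjusted p under 0.05, and 0 with DESeq2). With the replicate block 1 gene passed it, Kdm5d (adjusted p = 9.78e-06), the Y-linked gene that had 574 counts in Setd5 female replicate 1. It is named here because its value was seen. A difference smaller than these standard errors would not have been detectable with 2 male knockdown libraries, and larger ones could be missed too. That of Slc32a1 was 0.68 (SE 0.304) and did not pass.

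Setd5 shRNA was also compared directly with the other 8 targeting shRNAs of the series, a contrast that uses no nontargeting library. In the 65-library fit, 2902 of 15763 genes differed (18.4%), 1498 higher (9.5%) and 1404 lower (8.91%). The library labelled Kdm6b shRNA male replicate 1, with its low Setd5, is on the side of the other shRNAs in this contrast and in its values below, and 3172 genes differed without it. With the left-out Setd5 library put back, 2715 did. Without Setd5 female replicate 1 the count was 1756, and with the replicate block it was 5208. Of the 126 genes called higher against nontargeting, 118 (93.7%) were also higher than under the other shRNAs, and of the 360 called lower, 341 (94.7%) were also lower. None was called the opposite way. Both contrasts use the same 5 knockdown libraries, so these shares are no independent evidence.

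All 28 genes chosen by p or fold differed from the other shRNAs, as did 18.4% of all genes tested in this contrast. The 28 and the list members below were called on the same 5 knockdown libraries. Their counts here are therefore no independent evidence. Eif4h was lower by 1.40 (SE 0.102, adjusted p = 5.56e-16), Rchy1 by 1.25 (SE 0.0932, adjusted p = 6.95e-16) and Ncoa7 by 1.19 (SE 0.0916, adjusted p = 1.89e-15). B4galt5 was higher by 0.87 (SE 0.0626, adjusted p = 5.56e-16) and Abhd3 by 1.25 (SE 0.132, adjusted p = 7.57e-11). Of the 24 other called list members, 19 differed as well, Arsb (-1.27), Jun (-1.05), Sema3c (-1.08) and Hsd17b7 (-0.95) among them. Among the 5 that did not pass were Syn3 (-0.22, adjusted p = 0.282), Slc32a1 (-0.28, adjusted p = 0.151), Top2a (-0.64, adjusted p = 0.119) and Erc2 (-0.20, adjusted p = 0.0541).

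**Figure D5:**
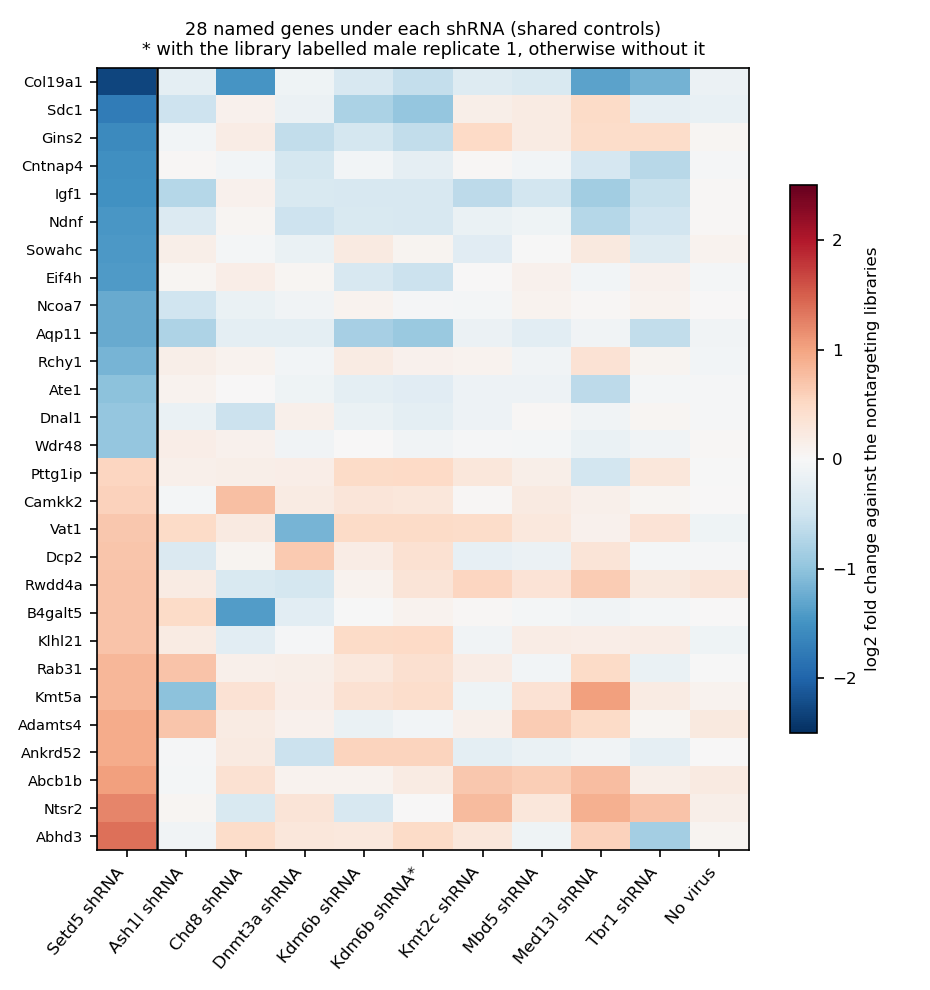
Log2 fold change against the shared nontargeting libraries for the 28 genes chosen by p or fold (rows of the grid) under each shRNA and without virus (columns of the grid). The column with an asterisk includes the library labelled Kdm6b shRNA male replicate 1, and the other columns come from a fit without it. The Setd5 column chose the genes. Other columns are mostly pale, with exceptions such as Col19a1 under Chd8, Med13l and Tbr1 shRNA and Kmt5a under Ash1l and Med13l shRNA.

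Side by side, each against the nontargeting libraries they share, the other shRNAs moved some of these genes strongly. For these values male replicate 1 of Kdm6b shRNA was left out of the fit. Kmt5a had a log2 fold change of 0.83 under Setd5 shRNA, 1.03 under Med13l shRNA (SE 0.102, adjusted p = 4.29e-12) and -1.02 under Ash1l shRNA (SE 0.103, adjusted p = 2.75e-11). Col19a1 had -2.29 under Setd5 shRNA, -1.48 under Chd8, -1.34 under Med13l and -1.18 under Tbr1 shRNA, all past the threshold. B4galt5 had 0.71 under Setd5 shRNA and -1.40 under Chd8 shRNA (adjusted p = 4.42e-22). Vat1 had 0.67 under Setd5 and -1.17 under Dnmt3a shRNA. Gria1 had 0.58 under Setd5 and -1.42 under Med13l shRNA, and Jun -0.96 under Setd5 and 0.66 under Chd8 shRNA. Kmt5a, B4galt5, Vat1, Gria1 and Jun were thus each called higher under 1 or more shRNAs and lower under another.

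Wdr48 and Sowahc were called under none of the other 8 shRNAs, and Eif4h and Rchy1 under 1 each. Wdr48 had -0.96 under Setd5 shRNA and between -0.16 and 0.17 under the others, and Sowahc had -1.43 against -0.33 to 0.24. Rchy1 had -1.16 against -0.08 to 0.37, the highest being under Med13l shRNA (adjusted p = 0.000641). Eif4h had -1.41 against -0.40 to 0.17, the lowest being under Kdm6b shRNA (adjusted p = 0.00347), where it was -0.54 with the library labelled Kdm6b shRNA male replicate 1. In the no virus libraries, which share the nontargeting libraries with these comparisons, Eif4h (-0.05), Rchy1 (-0.06), Sowahc (0.09) and Wdr48 (0.03) were near 0 too. Rwdd4a was not, at 0.30. With the no virus libraries as control, 41 of the 52 called named genes stayed called. Pttg1ip was among those lost (edgeR adjusted p = 0.0537), and Rwdd4a stayed called at 0.40 in place of 0.71.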

How the data were processed

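The authors deposited 1 table of read counts per gene, whole numbers and not normalized, made with STAR, featureCounts and mm10 per the submitters' processing notes. Their versions, the annotation, the strand setting and the counting of read pairs are not given in the sources used here, so reads of overlapping or antisense genes cannot be told apart. Of the values from 1 to 20, 29.5% were odd, against 49.1% of those of at least 1000, and halved counts were tried. Lines without a symbol (0.69% to 1.41% of counts) were left out, 149 repeated symbols were summed, and 6 library columns belonging to no sample used here were not used.

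Counts were tested in R 4.3.3 with edgeR 4.0.16: filterByExpr, TMM factors (0.941 to 1.01), robust quasi-likelihood F tests with sex as covariate, and Benjamini-Hochberg adjustment over all tested genes (threshold 0.05). Within-sex effects and their difference came from a fit with 1 mean per treatment and sex, and the contrast with other shRNAs from 65 libraries. CPM are relative to TMM-scaled sizes. Libraries of a group differed by more than sampling noise (chi-square per gene 14.4 to 184). The script was tested on simulated data for the comparison with nontargeting. It recovered 29.9% of 1.5-fold, 73.1% of 2-fold and 93.9% of 4-fold changes, so small changes can go uncalled.

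Named genes are, among called genes with at least 1 CPM, all 5 knockdown libraries on 1 side of the control mean of their sex and an unadjusted p under 0.05 without Setd5 female replicate 1, the 10 of smallest p per direction, the next 4 by fold, and called list members (at most 4 per list and direction). All HDAC3-NCoR, PAF1 and other target genes are named too. The members and lists were chosen with earlier results of these data known. Replicate numbers are shared by the labels. Deviations from the group mean correlated between same-numbered libraries in 5 of 5 pairs (0.235 to 0.562). Deviations within a group balance each other, so the 5 pairs are not independent checks. The block takes the pairing by number as given. Alternatives were DESeq2 1.42.0, its size factors, other filters, the block, all libraries, the left-out library put back, no virus as control and each library left out. Gene spans matched 99.3% of tested genes in RefSeq's GRCm38.p6 table, and 11692 of 14964 tested genes had a promoter there. Values of some called list members are not reported here.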

Additional observations from a re-analysis of the deposited data

Results flagged for a closer look

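Among 146 groups of values of named genes that were examined, 9 had 1 library whose gap to its nearest neighbour was a large share of the group's whole range, where chance alone gives about 1 in 20. Nontargeting female replicate 1 accounted for 5 of the 9. It was the highest of the nontargeting libraries for Abhd3 (gap 0.69 of the range) and Cplx2 (0.685), and the lowest for Kdm6b (0.71), Kmt5a (0.72) and Tbl1x (0.637). Gins2 was lowest in nontargeting female replicate 2 (0.646) and Grin3a in nontargeting female replicate 3 (0.633). In the knockdown group, Hdac3 was highest in Setd5 female replicate 3 (0.735) and Rtf1 was lowest in Setd5 male replicate 2 (0.732). Abhd3, Cplx2, Kmt5a and Grin3a stayed called whichever of the 11 libraries was left out, with an adjusted p of at most 0.0114, 0.0126, 0.0119 and 0.0283, and Gins2 stayed called without nontargeting female replicate 2.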

How the results depend on the processing

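The replicate block (the number within each sex) takes same-numbered libraries as pairs. With it the calls were 2004 against nontargeting, 924 in females, 255 in males, 1 for the sex difference and 5208 against the other shRNAs. All 52 called named genes stayed called under that block. With the number across sexes as the block, 44 of the 52 did. DESeq2 called 1165 genes, 384 in females and 183 in males. A fit of all libraries called 1532, 559 and 174, with 3 for the sex difference, and with the block added 3641, 2224 and 780, with 2. In males, 25 genes were called without a filter on low counts and 16 with halved counts. With the left-out library put back there were 59, 0 in females and 0 in males, and with no virus libraries as control 24 in females and 0 in males. Leaving out each library in turn gave 190 to 916 calls, 0 to 458 in females, 0 to 46 in males and 1756 to 2916 against the other shRNAs. In each fit without 1 library that leaves a sex with 1 knockdown library, that library is assumed to vary like the others. Among alternatives chosen after seeing the data, leaving out Setd5 female replicate 1 with the block gave 3056, and leaving out the library labelled Kdm6b shRNA male replicate 1 with the block gave 5494 against the other shRNAs. The share of higher calls was 25.9% in the reported comparison, 40.2% with DESeq2, 16.6% without a filter, 43.2% with the block, 40.5% in the fit of all libraries and 48.8% in that fit with the block. The cause of these shifts was not tested. None of the 52 called named genes changed direction in any of 23 fits. The genes were called on mostly the same libraries, so a change of direction was unlikely from the outset. Depth limits genes of a few CPM most, since knockdown libraries held as few as 13634872 counts.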
